A study of Mus musculus with 10 samples.

Results

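The Hox gene clusters A to D were examined as 428 array probes of the 88737 that are not controls. The members were chosen by position alone, as the probes inside 1 window of mouse build mm9 around each cluster. From the first to the last probe these spanned 52108264 to 52211243 of chromosome 6 (HoxA, 132 probes), 96064457 to 96228419 of chromosome 11 (HoxB, 106 probes), 102751860 to 102866437 of chromosome 15 (HoxC, 80 probes) and 74493722 to 74601954 of chromosome 2 (HoxD, 110 probes). Probes whose starts lay at most 500 bp apart were joined, which gave 78 groups of probes. Of these, 72 held at least 3 probes and are called regions below (17 in HoxA, 19 in HoxB, 17 in HoxC and 19 in HoxD, 416 probes in all), out of 13835 such regions on the array.

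DNA methylation was measured by MeDIP-chip, in which fragments that carry 5-methylcytosine are enriched by an antibody against it and hybridised beside the input DNA of the same sample. The tissue was the left hemibrain of male C57BL/6j mice, an inbred strain, and all 3 groups were put on a diet at 3 weeks of age and kept on it for 24 weeks. All sample titles, in each of the 3 groups, end in the word CONTROL, and what that word refers to was not examined here. The diets had equal caloric content and an n-3 to n-6 polyunsaturated fatty acid ratio of 7:1 (enriched, called ERD, with 4 arrays), 1:1 (balanced, called BLD, with 3) or 1:6 (standard, called STD, with 3), the last taken as the base of comparison. Whether each array is a separate animal is not stated, so every p-value rests on the spread between samples that may be technical repeats. A hemibrain mixes many cell types and brain parts, so that fewer methylated cells and less methylation per cell cannot be told apart. The labelled tissue was not checked against markers, since no probe is paired with a gene here.

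Hox genes encode homeodomain transcription factors that set position along the head-to-tail axis. Within a cluster the genes stand in the order of their paralogue groups, and that order follows the order in which they act along the body. Genes near the end with the low groups pattern the hindbrain, such as Hoxb1 and Hoxa2. Those of the middle groups act in the neck, the trunk and the spinal cord, such as Hoxb4, Hoxa5 and Hoxc8. The genes of the last group, such as Hoxa13 and Hoxd13, act in digits and in the urogenital tract. Most of the forebrain is known for silent Hox clusters held under Polycomb repression, and their CpG islands are widely known as targets of that repression.

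The promoters show what kind of sequence the antibody could act on, since it binds methylated cytosine and most of that lies in CpG dinucleotides. The 250 bases upstream of a gene start were found for 22 of the 38 listed Hox genes, at 24 starts, in RefSeq promoters of build GRCm38.p6. They held a median of 12.5 CpG, against 6 over 32851 promoters of the same length, and 62.5% of the Hox starts against 37.8% of all promoters held at least 10. Of the 24 starts 10 were of HoxA, 10 of HoxD, 3 of HoxB and 1 of HoxC, so these values say little of HoxB and HoxC. The motif searched was CG, which reads the same on both strands. Hoxa13 had 35 CpG and Hoxd13 had 31, and 2.97% and 5.19% of all promoters held as many. Hoxa5 had 28, Hoxa6 and Hoxd1 had 24 each, Hoxb4 had 14, Hoxb8 had 12, Hoxc4 had 8 and Hoxb1 had 7. Hoxa9 and Hoxd4 had 3 each, a number that 70.97% of all promoters reached, and 1 of the starts of Hoxd11 had 2. The richest Hox promoter of HoxA and of HoxD and a poor one of the same cluster are printed to show that range, with each CpG in capitals. They come from chr6:52260881-52261130 and chr6:52227371-52227620 on the minus strand and from chr2:74667975-74668224 and chr2:74721728-74721977 on the plus strand of GRCm38.p6.
Hoxa13: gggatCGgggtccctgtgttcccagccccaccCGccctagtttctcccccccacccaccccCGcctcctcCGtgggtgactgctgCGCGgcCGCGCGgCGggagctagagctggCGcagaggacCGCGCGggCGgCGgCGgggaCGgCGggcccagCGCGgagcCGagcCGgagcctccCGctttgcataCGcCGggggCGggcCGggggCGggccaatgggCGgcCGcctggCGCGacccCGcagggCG
Hoxa9: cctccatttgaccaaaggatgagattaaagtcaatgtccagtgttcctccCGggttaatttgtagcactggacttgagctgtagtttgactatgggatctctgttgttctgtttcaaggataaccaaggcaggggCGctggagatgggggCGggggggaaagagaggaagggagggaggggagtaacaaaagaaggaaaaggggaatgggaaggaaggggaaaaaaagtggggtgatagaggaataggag
Hoxd13: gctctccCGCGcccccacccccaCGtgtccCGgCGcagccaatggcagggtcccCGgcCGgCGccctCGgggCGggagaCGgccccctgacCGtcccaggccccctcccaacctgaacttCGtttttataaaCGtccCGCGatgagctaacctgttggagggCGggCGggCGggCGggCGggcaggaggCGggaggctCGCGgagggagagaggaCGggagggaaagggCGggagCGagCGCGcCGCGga
Hoxd4: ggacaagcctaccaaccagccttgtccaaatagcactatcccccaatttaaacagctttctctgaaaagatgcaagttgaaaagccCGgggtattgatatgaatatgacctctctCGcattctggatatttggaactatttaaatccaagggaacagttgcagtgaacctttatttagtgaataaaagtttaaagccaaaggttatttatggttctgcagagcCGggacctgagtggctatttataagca
The promoters are on another build than the probes, so no region is assigned to a gene, exon, intron or promoter here. Regions are numbered in each cluster from the end with the lowest paralogue group to the end with group 13, an order taken from the RefSeq gene table, and all region coordinates below are on mm9.

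The value of a probe is the log2 ratio of immunoprecipitated over input DNA after each array was centred on its median, so 0 is the typical probe of that array and a value above 0 means more pull-down than typical. The value of a region is the mean of its probes. Hox regions had a median of 5 probes and of 518.5 bp, and ranged from 245 to 1937 bp. Over the 10 arrays, 79.6% of Hox spots passed the scanner's test of being well above background, with red and green both passing, beside 86.7% of all spots, and the share ran from 70.3% on STD replicate 3 to 88.6% on ERD replicate 2. The interquartile range of Hox probes was 0.69 ± 0.11 for the ERD arrays (SD, n = 4), 0.63 ± 0.20 for the BLD arrays (SD, n = 3) and 0.51 ± 0.07 for the STD arrays (SD, n = 3). The mean was highest in ERD, as it was over all probes (0.71, 0.61 and 0.47). BLD replicates 1 and 2, at 0.77 and 0.73, lay within the ERD range of 0.61 to 0.84, while BLD replicate 3 was at 0.40. The arrays lay in pairs on 5 slides, and 1 slide held both BLD and STD, namely BLD replicate 3 and STD replicate 1. ERD shared no slide with another diet, so ERD and slide cannot be told apart.

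The Hox clusters lay near the array median, with HoxA and HoxD below it and HoxB and HoxC close to it. Over all 428 Hox probes the mean was -0.069 ± 0.040 for the ERD arrays (SD, n = 4), -0.029 ± 0.10 for the BLD arrays (SD, n = 3) and -0.066 ± 0.014 for the STD arrays (SD, n = 3), beside -0.037, -0.011 and -0.045 over all probes. HoxA had means of -0.073, -0.17, -0.15 and -0.18 on the ERD arrays, of -0.16, 0.033 and -0.090 on the BLD arrays and of -0.10, -0.078 and -0.077 on the STD arrays. BLD replicate 2 was the 1 array with a mean above 0, and the 3 diets overlapped. In HoxD the diet means were -0.12 ± 0.026 for the ERD arrays (SD, n = 4), -0.077 ± 0.086 for the BLD arrays (SD, n = 3) and -0.055 ± 0.073 for the STD arrays (SD, n = 3), and in HoxB they were 0.017 ± 0.052, -0.00014 ± 0.10 and -0.041 ± 0.035. The diets overlapped in both clusters.

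HoxC was the 1 cluster of the 4 in which the arrays of ERD and of BLD lay above those of STD. Its means were 0.037, 0.058, -0.027 and -0.045 on the ERD arrays, 0.022, 0.25 and -0.062 on the BLD arrays and -0.066, -0.075 and -0.11 on the STD arrays. ERD exceeded STD by 0.090 and BLD exceeded STD by 0.15, the latter with BLD replicate 2 far above the rest, while the 2 arrays that share a slide differed by 0.0040. No p is given for these means, since they sum over chosen members. In order of the mean of the 3 diet means the clusters ran from HoxA (-0.10) over HoxD (-0.082) and HoxB (-0.0081) to HoxC (-0.0026), and the arrays of neighbours in this order overlapped within each diet, except that in ERD all HoxD arrays lay below all HoxB arrays. The order of HoxB and HoxC turned without BLD replicate 2 (-0.028 and -0.033), and without BLD replicate 3 both were above 0 (0.0057 and 0.020). Over probes well above background on all arrays HoxD (-0.14) was lowest, then HoxA (-0.12), HoxB (-0.099) and HoxC (-0.0052), and with normexp the 4 lay between -0.022 and -0.0085, with HoxB lowest.

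**Figure D1:**
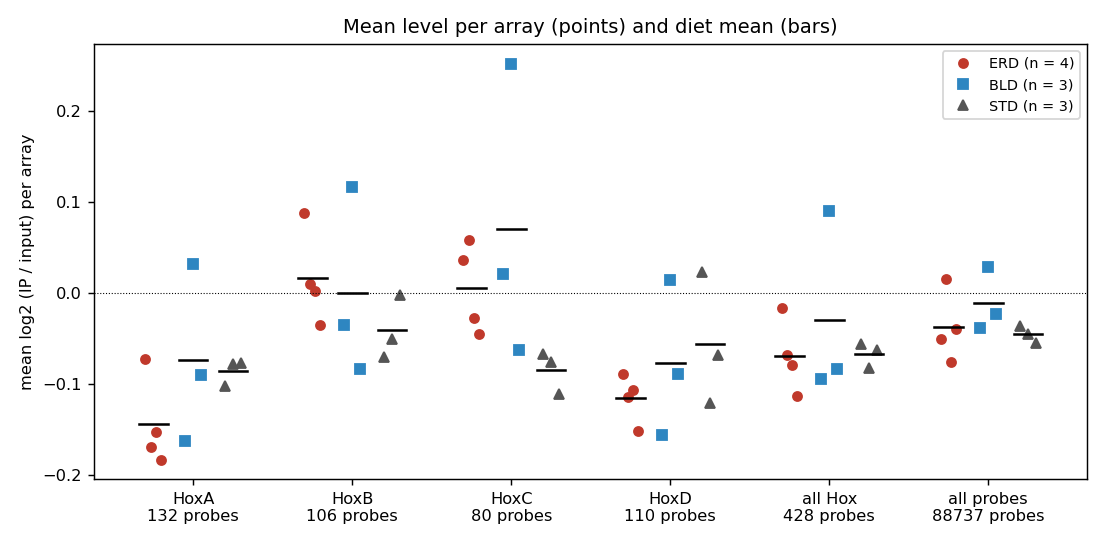
Mean log2 ratio of immunoprecipitated over input DNA per array (points) and per diet (black bars) over the probes of each Hox cluster, of all Hox probes and of all probes. In HoxC the 3 STD arrays (-0.11 to -0.066) lie below all ERD and BLD arrays, and in the other clusters the diets overlap.

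Few Hox regions stood steadily on one side of the array median. On all 10 arrays 2 of 72 regions lay above it, where 8.27% of all regions did, and 6 of 72 lay below it, where 16% did. The levels, taken as the mean of the 3 diet means, ran from -0.44 to 0.37 with a median of -0.066, against a median of -0.045 over all regions. By this level 1 Hox region was among the highest 10% of all regions and 6 were among the lowest 10%. Regions over 10 probes were 5 of 72 (6.94%), against 8.85% of all regions, and their levels ran from -0.31 to 0.055.

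HoxD region 6 had the lowest level of all Hox regions, at -0.44. It holds 5 probes on chromosome 2 from 74565292 to 74565766, and its values were -0.63, -0.19, -0.52 and -0.63 in ERD, -0.66, -0.20 and -0.45 in BLD and -0.61, -0.39 and -0.20 in STD. All 10 arrays were below the median and the diets overlapped in this region mean. Its probes at 74565292 and 74565564 differed between BLD and STD by 2.34 and -1.15 without BLD replicate 3. They were well above background on 1 and on 10 arrays. HoxC region 17, at the group 13 end on chromosome 15 from 102751860 to 102752695, was also below the median on all arrays, with -0.41 ± 0.12 for the ERD arrays (SD, n = 4), -0.46 ± 0.31 for the BLD arrays (SD, n = 3) and -0.19 ± 0.11 for the STD arrays (SD, n = 3). So were HoxB region 12 (level -0.30), HoxD region 12 (level -0.29), HoxB region 1 (level -0.24) and HoxA region 17 (level -0.12). The other low regions of their clusters were HoxA region 12 (-0.31), HoxB region 4 (-0.29), HoxA region 4 (-0.21) and HoxC region 8 (-0.20), each below the median on 7 to 9 arrays.

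The regions above the median on all arrays were HoxC region 16, directly beside the low region 17, and HoxD region 7. HoxC region 16, of 5 probes on chromosome 15 from 102757568 to 102758011, had 0.20, 0.050, 0.33 and 0.39 in ERD, 0.38, 0.54 and 0.040 in BLD and 0.16, 0.17 and 0.15 in STD. STD was tightly grouped within the range of the other diets. HoxD region 7, of 4 probes on chromosome 2 from 74549856 to 74550366, had 0.15 ± 0.11 for the ERD arrays (SD, n = 4), 0.30 ± 0.24 for the BLD arrays (SD, n = 3) and 0.14 ± 0.12 for the STD arrays (SD, n = 3). The other high regions of their clusters were HoxD region 10 (0.25), HoxB region 10 (0.21), HoxA region 9 (0.10) and HoxA region 8 (0.078). The highest level of all, 0.37, was that of HoxB region 17 on chromosome 11 from 96130826 to 96131211, but 0% of its spots in ERD and in BLD and 11.1% in STD were well above background. HoxC region 3, with a level of 0.25, had 37.5% such spots in ERD, 16.7% in BLD and 25% in STD.

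Level did not follow paralogue order in one way across the clusters. The correlation of level with order from the low-group end was -0.13 over 17 regions in HoxA, 0.45 over 19 in HoxB, -0.34 over 17 in HoxC and -0.14 over 19 in HoxD. These are descriptions over regions that share arrays and probe design. In HoxB the 7 regions of the segment nearest group 13 had a median level of 0.15, against -0.081 for the 6 nearest group 1, and HoxB region 17 with its dim spots is among the former. HoxA was highest in its middle, with a median level of 0.019 over 6 regions, against -0.11 over the 5 regions before and -0.12 over the 6 after them. Neighbouring regions were not alike in level, with a correlation of -0.18 over 68 neighbour pairs.

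**Figure D2:**
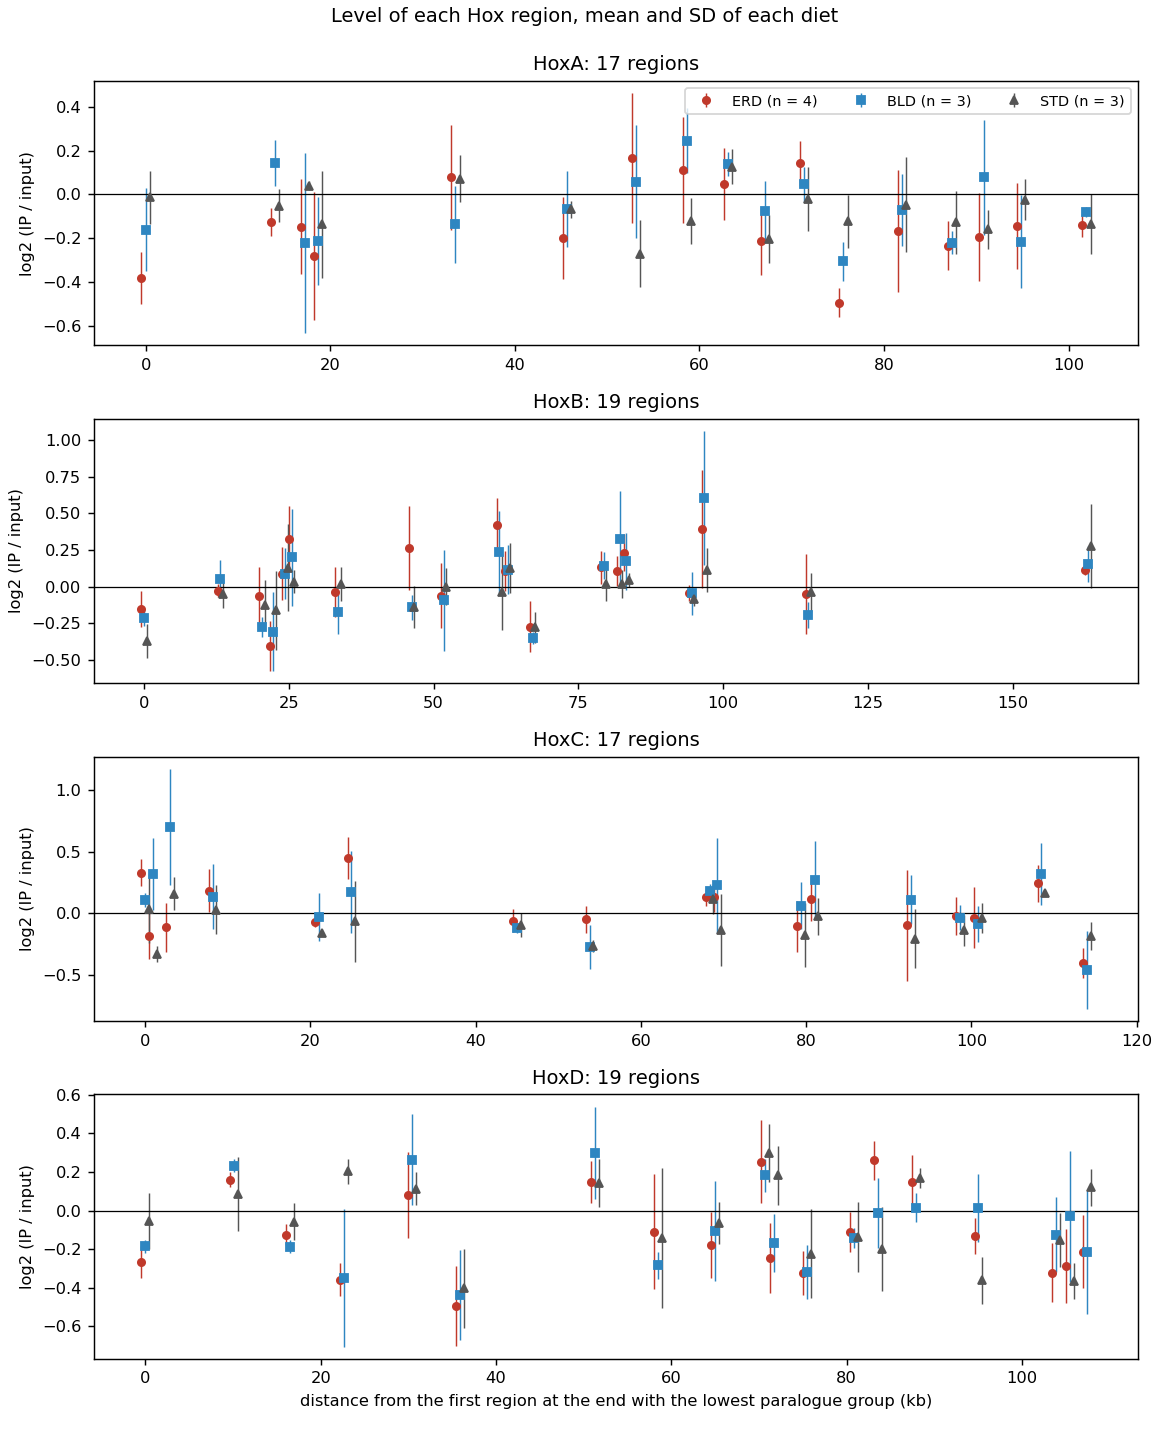
Mean and SD of the log2 ratio of each Hox region in ERD, BLD and STD, against its distance in kb from the first region at the end with the lowest paralogue group; the diets are shifted sideways to keep them apart. Levels run from -0.44 to 0.37. In HoxC region 3 (BLD mean 0.70) and HoxD region 4 (STD mean 0.20) 1 diet mean lies apart from the other 2, though in HoxC region 3 BLD replicate 3 (0.15) lay within STD.

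Within a Hox region the outermost probes gave more pull-down than the inner ones. Over the 41 Hox regions with at least 5 probes, the first and last probe exceeded the inner probes on all 10 arrays, by 0.35 ± 0.058 for the ERD arrays (SD, n = 4), 0.34 ± 0.17 for the BLD arrays (SD, n = 3) and 0.12 ± 0.014 for the STD arrays (SD, n = 3). The inner probes averaged below 0 on all 10 arrays, between -0.24 and -0.080. The 4 ERD arrays (0.29 to 0.42) lay above the 3 STD arrays (0.11 to 0.14), and BLD replicate 3, at 0.14, lay next to STD replicate 1 of the same slide, at 0.11. Over all 8917 regions of this size the difference was 0.054 to 0.40, and there too the ERD arrays (0.22 to 0.27) lay above the STD arrays (0.054 to 0.16). Neither the higher edges nor that order of ERD and STD is particular to Hox. With normexp background correction, which starts from the raw median intensities, the Hox edges were higher on 6 of 10 arrays, with means of 0.0076 in ERD, 0.016 in BLD and 0.16 in STD.

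**Figure D3:**
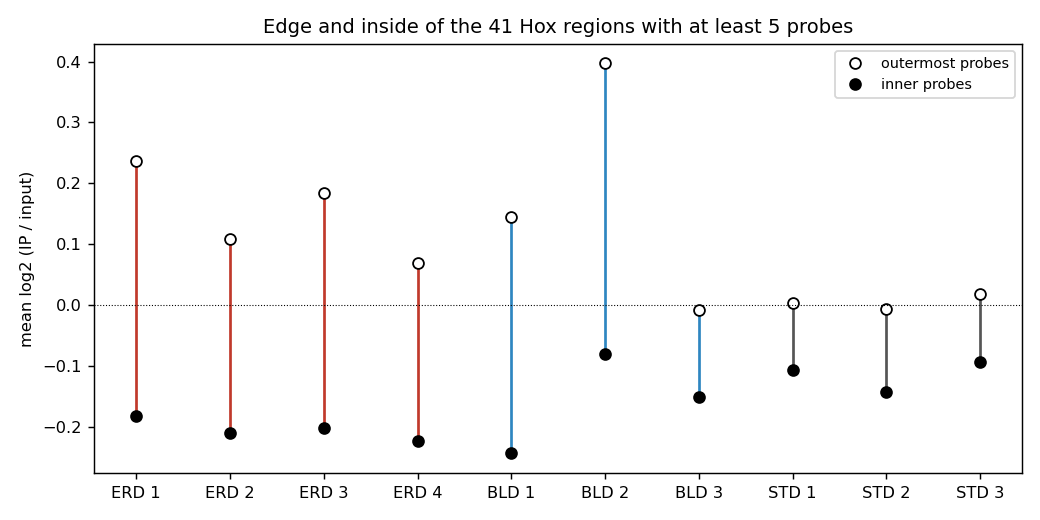
Mean log2 ratio of the outermost (open circles) and inner (filled circles) probes of the 41 Hox regions with at least 5 probes, per array; the line between them is coloured by diet. The outermost probes lie above the inner ones on all 10 arrays, and the lines of STD are short (0.11 to 0.14).

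ERD and STD lie at both ends of the n-3 to n-6 ratio. The lowest p-values among Hox regions were those of HoxD regions 4 and 11 and HoxA region 12, which lay lower in ERD, and of HoxD region 14, which lay higher. No Hox region passed an adjusted p of 0.05 in limma, and across the array 0% of regions did. In the main processing 13 of 72 Hox regions (18.1%) stood at an unadjusted p under 0.05, close to the share of 15.7% over all regions. Of these, 7 were higher in ERD (background 7.68%) and 6 lower (background 8.02%). The 6 lower regions lay in HoxA (2) and HoxD (4), and the 7 higher ones in HoxB (3), HoxC (2), HoxA (1) and HoxD (1). No overlap between the arrays was seen in 12 Hox regions, where they did not in 16.2% of all regions. Without STD replicate 3 the number at an unadjusted p under 0.05 was 8, and the count over all regions without that array is not given here. The split of 7 higher and 6 lower was 9 and 4 with loess and 2 and 3 over probes well above background on all arrays. With normexp it was 10 and 6, where 802 of all 13835 regions were higher and 404 lower. The share in Hox was then above that of the array, and the reason was not tested.

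The clusters leaned different ways between ERD and STD. In HoxC 15 of 17 regions were higher in ERD, with a median difference of 0.11, and in HoxB 12 of 19, with a median of 0.045. In HoxA 13 of 17 were lower in ERD (median -0.080), and in HoxD 12 of 19 (median -0.047). Over all 72 Hox regions 38 were higher and the median was 0.0056, beside 0.0033 over all regions. With normexp background correction the lean of HoxA was 9 of 17 lower and that of HoxC 10 of 17 higher, and HoxD had 10 of 19 higher, where 64.5% of all regions were higher in ERD with that correction, against 50.6% without it. The shares of HoxC (58.8%) and HoxD (52.6%) were then below that of the array. The lean of HoxC was 14 or 15 of 17 under loess, quantile normalization, scaling to one spread, the series value table and without saturated spots, and 4 of 6 over probes well above background on all arrays. These counts are descriptions and were not tested.

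HoxD region 4 had the lowest p of all Hox regions between ERD and STD. It holds 3 probes on chromosome 2 from 74578542 to 74578824, and gave -0.37, -0.23, -0.41 and -0.42 in ERD, -0.72, -0.31 and -0.013 in BLD and 0.28, 0.16 and 0.17 in STD. All STD arrays were above 0 and all ERD and BLD arrays below it. ERD differed from STD by -0.56 ± 0.14 (SE; limma adjusted p = 0.181), and with normexp by -0.092. HoxA region 12, the lowest region of HoxA, with 13 probes on chromosome 6 from 52183340 to 52185132, gave -0.48, -0.57, -0.52 and -0.41 in ERD, -0.41, -0.28 and -0.23 in BLD and -0.22, 0.014 and -0.17 in STD. The 3 diets did not overlap and stood in the order of their n-3 share, with ERD lowest, but they nearly touched. ERD replicate 4 was at -0.411 and BLD replicate 1 at -0.405, and BLD replicate 3 was at -0.234 and STD replicate 1 at -0.218. The difference between ERD and STD was -0.37 ± 0.093 (SE; limma adjusted p = 0.181), -0.096 with normexp and -0.23 over probes well above background on all arrays. It is one of the 5 Hox regions over 10 probes, and in STD 56.4% of its spots were well above background.

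HoxD region 11, of 5 probes on chromosome 2 from 74529450 to 74529945, came next among the lower regions. It gave -0.40, -0.40, -0.053 and -0.13 in ERD, -0.29, 0.0032 and -0.22 in BLD and 0.058, 0.14 and 0.35 in STD, and the difference between ERD and STD was -0.43 ± 0.12 (SE; limma adjusted p = 0.193). All STD arrays lay above all ERD and BLD arrays here, as in HoxD region 4. The difference was -0.13 with normexp and -0.25 with starts up to 1000 bp apart joined. The remaining lower regions at an unadjusted p under 0.05 were HoxA region 1 (-0.37), HoxD region 19 (-0.33) and HoxD region 1 (-0.21).

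On the higher side, HoxD region 14 had the lowest p, with 3 probes on chromosome 2 from 74517683 to 74517945. It gave 0.25, 0.30, 0.13 and 0.36 in ERD, 0.20, -0.091 and -0.14 in BLD and -0.45, -0.10 and -0.053 in STD, so ERD was higher by 0.46 ± 0.12 (SE; limma adjusted p = 0.181). All ERD arrays lay above 0 and all STD arrays below it, and the difference without 1 array stayed between 0.34 and 0.53. HoxB region 10, of 3 probes on chromosome 11 from 96166183 to 96166610, gave 0.66, 0.32, 0.24 and 0.45 in ERD, 0.44, 0.35 and -0.079 in BLD and -0.11, 0.25 and -0.26 in STD, so that ERD minus STD was 0.46 ± 0.16 (SE; limma adjusted p = 0.219). Here STD replicate 2 overlapped with ERD, and the difference was 0.11 with starts up to 1000 bp apart joined and 0.24 with the median of the probes. HoxC region 6, of 3 probes on chromosome 15 from 102841127 to 102841475, gave 0.53, 0.64, 0.27 and 0.35 in ERD, 0.023, 0.55 and -0.058 in BLD and -0.43, 0.20 and 0.037 in STD, so that ERD minus STD was 0.52 ± 0.18 (SE; limma adjusted p = 0.22), and 0.33 without STD replicate 1. The lowest ERD array stood above the highest STD array by less than the spread within either diet. The other higher regions at an unadjusted p under 0.05 were HoxA region 7 (0.44), HoxB region 8 (0.40), HoxC region 1 (0.29) and HoxB region 1 (0.22).

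**Figure D4:**
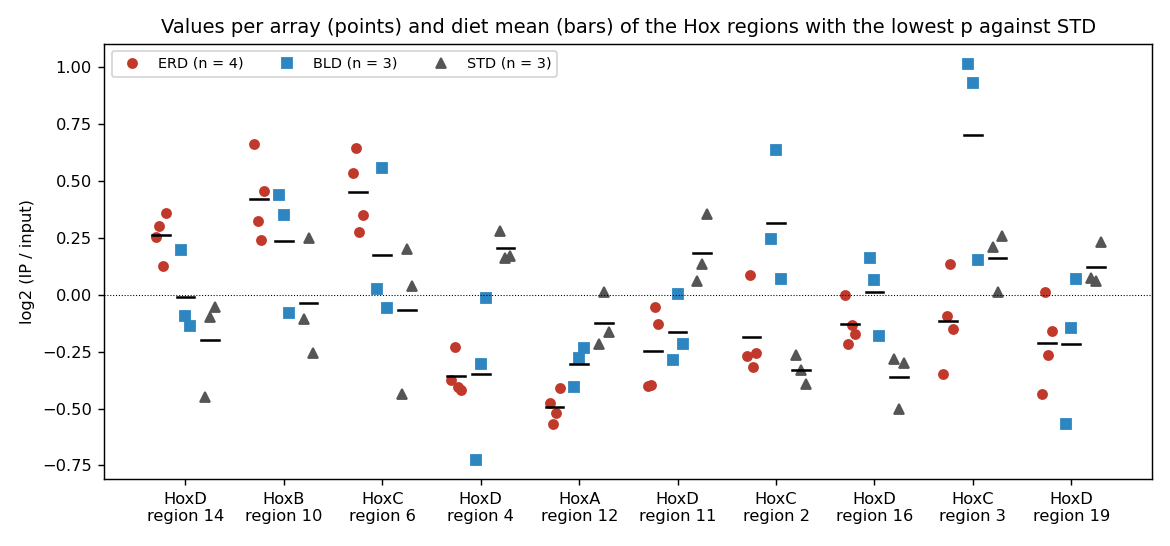
Log2 ratio per array (points) and diet mean (black bars) of the Hox regions with the lowest p for ERD or BLD against STD. In HoxD regions 4 and 11 the 3 STD arrays lie above all ERD and BLD arrays, and in HoxD region 14 the 4 ERD arrays (0.13 to 0.36) lie above the 3 STD arrays (-0.45 to -0.053).

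Part of the difference between ERD and STD went with the level of a region in BLD, a measure that uses no array of the other diets. Of the 33 Hox regions above the array median in BLD, 23 were higher in ERD than in STD, and of the 39 below it 24 were lower. At an unadjusted p under 0.05, the 33 held 4 higher and 0 lower regions and the 39 held 3 higher and 6 lower. The same split was not counted over all regions, so it is not read as a trait of Hox. Over the 72 Hox regions the correlation of difference and BLD level was 0.41, and over all 13835 regions it was 0.65. With the arrays brought to one interquartile range these values were 0.18 and 0.37. Regions share arrays and slides, so these are descriptions of the 10 arrays. The part that the wider spread of ERD than of STD has in single regions was not tested.

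**Figure D5:**
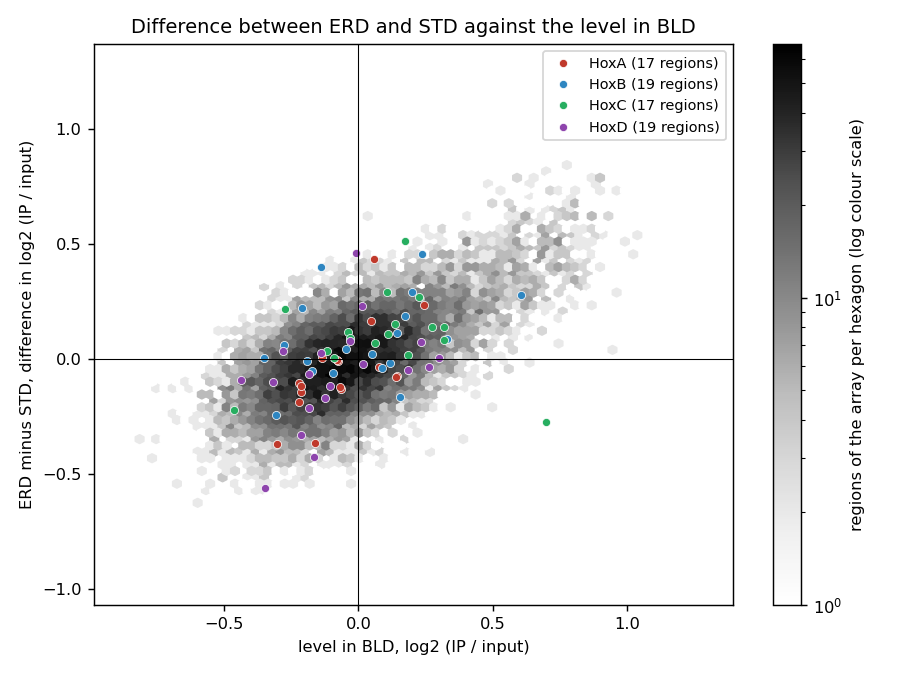
Difference in log2 ratio between ERD and STD (y axis) against the level in BLD (x axis) for the Hox regions (coloured by cluster) over the count of all 13835 regions (grey hexagons, log colour scale). The Hox regions lie within the grey cloud with a shallower slope (0.37 against 0.51), and HoxC region 3 lies apart at a BLD level of 0.70.

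Between BLD and STD, HoxC regions 2 and 3, which neighbour each other, headed the higher side, and HoxD regions 4 and 11 again headed the lower side. No Hox region passed an adjusted p of 0.05 in limma (0% across the array), and the lowest adjusted p was 0.44. At an unadjusted p under 0.05 were 6 of 72 Hox regions, where 11.2% of all regions were, 4 higher (background 7.31%) and 2 lower (background 3.89%). No overlap between the arrays was seen in 9 Hox regions, against 17.4% of all regions. Without BLD replicate 3 the number at an unadjusted p under 0.05 was 13, and without BLD replicate 2 it was 4. The counts over all regions in these 2 fits are not given here, so this change is not read as a trait of Hox. The split of 4 higher and 2 lower was 0 and 2 with normexp, 3 and 5 with loess, 4 and 4 with quantile normalization and 2 and 3 over probes well above background on all arrays. HoxC had 13 of 17 regions higher in BLD (median 0.13), where 56.7% of all regions were higher, and with normexp 6 of 17, where 45.9% of all regions were. HoxD had 7 of 19 higher. The median over all Hox regions was 0.020, beside 0.030 over all regions.

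HoxC region 2, of 4 probes on chromosome 15 from 102865150 to 102865470, gave 0.25, 0.64 and 0.067 in BLD, -0.27, -0.33 and -0.39 in STD and -0.27, 0.089, -0.32 and -0.25 in ERD. The BLD arrays lay above 0 and the STD arrays below -0.25, with 3 of 4 ERD arrays beside STD. BLD differed from STD by 0.65 ± 0.15 (SE; limma adjusted p = 0.44), by 0.33 within the shared slide, by -0.057 with normexp and by 0.36 with starts up to 1000 bp apart joined. HoxC region 3, of 4 probes on chromosome 15 from 102863049 to 102863445, gave 1.01, 0.93 and 0.15 in BLD, 0.21, 0.010 and 0.26 in STD and -0.35, -0.095, 0.13 and -0.15 in ERD. BLD replicates 1 and 2 lay far above the other 8 arrays, while BLD replicate 3 lay within STD. The difference from STD was 0.54 ± 0.20 (SE; limma adjusted p = 0.44), -0.054 within the shared slide, -0.27 with normexp, 0.092 with loess and 0.81 without BLD replicate 3, and few of its spots were well above background, as given above.

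HoxD region 16, of 8 probes on chromosome 2 from 74505717 to 74506960, gave 0.16, 0.063 and -0.18 in BLD, -0.28, -0.50 and -0.30 in STD and 0.00053, -0.22, -0.13 and -0.17 in ERD. The STD arrays lay below all others, and BLD differed from STD by 0.38 ± 0.12 (SE; limma adjusted p = 0.44), by 0.10 within the shared slide and by 0.14 with normexp. On the lower side HoxD region 4 differed by -0.55 ± 0.15 (SE; limma adjusted p = 0.44), with -0.29 within the shared slide, -0.11 with normexp and -0.36 without BLD replicate 1. HoxD region 11 differed by -0.35 ± 0.13 (SE; limma adjusted p = 0.44), with -0.27 within the shared slide, -0.14 with normexp and -0.55 with the median of the probes. In both, BLD and ERD were compared with the same 3 STD arrays, so their low values in both comparisons share those controls. HoxD region 19, at the group 13 end on chromosome 2 from 74493722 to 74494276, gave -0.57, -0.15 and 0.067 in BLD and 0.073, 0.059 and 0.23 in STD, which overlapped, and BLD minus STD was -0.34 ± 0.16 (SE; limma adjusted p = 0.45), or -0.16 without BLD replicate 1 and -0.068 with normexp.

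Between ERD and BLD, HoxC regions 3 and 2 had the lowest p of the Hox regions. No Hox region passed an adjusted p of 0.05 in limma (0% across the array), and the lowest adjusted p was 0.422. At an unadjusted p under 0.05 were 5 of 72 Hox regions, where 10.2% of all regions were, 2 higher in ERD (background 3.48%) and 3 lower (background 6.71%). The arrays did not overlap in 6 Hox regions, against 10.1% of all regions. Without BLD replicate 1 the number at an unadjusted p under 0.05 was 8, and the count over all regions without that array is not given here. The split of 2 higher and 3 lower was 0 and 0 with normexp, 5 and 3 with loess and 3 and 3 with quantile normalization. HoxC region 3 differed by -0.81 ± 0.19 (SE; limma adjusted p = 0.422), with the ERD arrays below all BLD arrays, and by -0.067 with normexp and -0.39 with loess. HoxC region 2 differed by -0.50 ± 0.14 (SE; limma adjusted p = 0.432), or by -0.63 without BLD replicate 3 and -0.34 without BLD replicate 2, by -0.074 with normexp and by -0.14 with starts up to 1000 bp apart joined. ERD replicate 2 overlapped with BLD there.

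HoxA region 2, of 5 probes on chromosome 6 from 52122417 to 52122873, lay at the low-group end of its cluster and gave -0.036, -0.13, -0.14 and -0.19 in ERD, 0.086, 0.27 and 0.081 in BLD and -0.049, 0.021 and -0.13 in STD. The BLD arrays stood above all others, and ERD minus BLD was -0.27 ± 0.090 (SE; limma adjusted p = 0.452), or 0.027 with normexp, -0.063 over probes well above background on all arrays and -0.079 with the median of the probes. HoxB region 8, whose 5 probes lie on chromosome 11 from 96181269 to 96181798, was higher in ERD, at 0.64, 0.19, 0.28 and -0.051, than in BLD, at -0.22, -0.053 and -0.14, and STD overlapped with both, at 0.023, -0.18 and -0.25. ERD replicate 4 and BLD replicate 2 were nearly equal. ERD exceeded BLD by 0.40 ± 0.14 (SE; limma adjusted p = 0.458), with ERD replicate 1 as the highest array, or by 0.14 with normexp and 0.096 with starts up to 1000 bp apart joined. HoxD region 14 differed by 0.27 ± 0.12 (SE; limma adjusted p = 0.486) with overlap of the arrays, or by 0.053 with the median of the probes and 0.41 with loess. HoxC region 8 differed by 0.22 ± 0.10 (SE; limma adjusted p = 0.5), or by 0.13 without BLD replicate 3, 0.024 with normexp, 0.35 with loess, 0.48 with starts at most 250 bp apart and -0.029 with the median of the probes in place of the mean.

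The trend sets each Hox region against the fatty acid ratio of the 3 diets on a log2 scale. No Hox region passed an adjusted p of 0.05 in limma, while 0.0434% of all regions did. At an unadjusted p under 0.05 were 12 of 72 Hox regions (16.7%), beside 15% of all regions, 7 with a positive slope (background 7.09%) and 5 with a negative one (background 7.94%). The negative slopes lay in HoxA (2) and HoxD (3). HoxA region 12 had the lowest p, with a slope of -0.069 ± 0.017 (SE; limma adjusted p = 0.168) in log2 units for each doubling of the ratio, and its diet means of -0.49, -0.30 and -0.12 in ERD, BLD and STD were evenly stepped. The slope was -0.016 with normexp and -0.039 over probes well above background on all arrays. HoxA region 1, of 6 probes on chromosome 6 from 52108264 to 52109035, gave -0.28, -0.40, -0.31 and -0.54 in ERD, -0.34, 0.031 and -0.17 in BLD and -0.15, 0.060 and 0.054 in STD, a slope of -0.069 ± 0.020 (SE; limma adjusted p = 0.187). ERD lay below all STD arrays and BLD spanned both, and the slope was -0.039 with normexp and -0.031 with the median of the probes. HoxD region 4 had a slope of -0.10 ± 0.030 (SE; limma adjusted p = 0.193), although BLD, at a mean of -0.35, lay beside ERD and not between the other diets, and its slope was -0.016 with normexp. The positive slopes named were those of HoxD region 14, at 0.086 ± 0.022 (SE; limma adjusted p = 0.168), HoxC region 6, at 0.10 ± 0.032 (adjusted p = 0.213), and HoxB region 10, at 0.084 ± 0.028 (adjusted p = 0.219), the last 0.019 with starts up to 1000 bp apart joined and 0.043 with the median of the probes.

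Single probes were tested too, since a region mean can hide a narrow difference. In limma 0 of 428 Hox probes passed an adjusted p of 0.05 in each of the 3 comparisons, as did 0% of 88729 probes. Without BLD replicate 3, 4 Hox probes passed between BLD and STD (567 probes of the array, 0.640%) and 3 between ERD and BLD (429 probes, 0.484%), 6 of these 7 calls in HoxD and 1 in HoxB. Of the 7 calls, 4 were on probes well above background on 0 or 1 of the 10 arrays. Between ERD and STD 71 Hox probes had an unadjusted p under 0.05 (background 15%), 34 higher (background 6.54%) and 37 lower (background 8.49%), and 47 without STD replicate 2. Of the 34 higher probes HoxB held 18, HoxA and HoxC 7 each and HoxD 2, and of the 37 lower ones HoxD held 15, HoxA 13, HoxC 5 and HoxB 4. Between BLD and STD the number was 51 (background 10.5%), 31 higher (background 6.19%) and 20 lower (background 4.33%), and leaving out BLD replicates 1, 2 and 3 in turn gave 23, 32 and 89. Between ERD and BLD it was 54 (background 11.7%), 27 higher (background 5.57%) and 27 lower (background 6.12%). The backgrounds are of the fit with all 10 arrays. Counts over all probes at an unadjusted p under 0.05 without 1 array are not given here, so the Hox counts of those fits are not set against the array.

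Of the probes higher in ERD, the one with the lowest p against STD lay in HoxB region 16, on chromosome 11 from 96134109 to 96134154, and was well above background on all 10 arrays. It gave 0.26, 0.18, 0.26 and 0.20 in ERD, -0.11, 0.16 and -0.43 in BLD and -0.77, -0.57 and -0.57 in STD. ERD, BLD and STD did not overlap, and ERD exceeded STD by 0.86 ± 0.18 (SE; limma adjusted p = 0.145). A probe of HoxB region 1 on chromosome 11 from 96227414 to 96227467, also bright on all arrays, had 0.34 ± 0.17 for the ERD arrays (SD, n = 4) and -0.53 ± 0.30 for the STD arrays (SD, n = 3), and ERD was higher by 0.87 ± 0.23 (SE; limma adjusted p = 0.153). On the lower side, the middle probe of HoxD region 4, on chromosome 2 from 74578701 to 74578745, gave -0.86, -0.91, -1.54 and -1.12 in ERD, -0.71, -0.038 and -0.46 in BLD and -0.022, -0.011 and 0.18 in STD, which put ERD at -1.16 ± 0.22 (SE; limma adjusted p = 0.142) against STD. It was well above background on 2 of 4 ERD arrays and on all 3 STD arrays. A probe of HoxA region 12 on chromosome 6 from 52184400 to 52184448 had a difference of -1.03 ± 0.22 (adjusted p = 0.148) and was not well above background on any ERD or STD array.

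Between BLD and STD the probe with the lowest p lay in HoxD region 6, on chromosome 2 from 74565483 to 74565527. It gave -2.28 and -1.37 on BLD replicates 1 and 2, 0.084, -0.45 and -0.29 in STD and 0.26, -0.44, -0.071 and -0.54 in ERD, and its spot on BLD replicate 3 was an outlier and left out. The 2 BLD values lay far below the other 7, and BLD differed from STD by -1.61 ± 0.33 (SE; limma adjusted p = 0.464) and ERD from BLD by 1.63 ± 0.31 (SE; limma adjusted p = 0.379). This probe was well above background on all arrays with a value. A probe of HoxD region 11 on chromosome 2 from 74529632 to 74529676, bright on all arrays, gave -0.80, -0.45 and -0.26 in BLD and 0.38, 0.35 and 0.28 in STD, so that BLD minus STD was -0.84 ± 0.22 (SE; limma adjusted p = 0.464). The higher probes, in HoxC region 2 (1.41) and HoxB region 13 (1.70), were not well above background on any array. Between ERD and BLD the other named probes lay in HoxB region 8 (0.96), HoxD region 7 (-1.22) and HoxA region 15 (-1.28), and the last 2 were well above background on 1 and 3 of the 10 arrays.

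Hox regions varied within a diet about as much as other regions, with a median pooled SD of 0.17 against 0.16 over all regions. HoxB region 17 had the largest pooled SD, 0.37, with 0.88, 0.042, 0.085 and 0.57 in ERD, 0.64, 1.05 and 0.13 in BLD and -0.033, 0.11 and 0.27 in STD, on dim spots. HoxC region 13, on chromosome 15 from 102773323 to 102773780, followed with 0.34 and had -0.28, 0.57, -0.39 and -0.30 in ERD, where replicate 2 stood alone above 0. Over the 72 Hox regions the mean correlation was 0.57 for pairs of ERD arrays, 0.58 for pairs of BLD arrays and 0.38 for pairs of STD arrays, the lowest STD pair being at 0.17. It was 0.47 for an ERD with a BLD array, 0.30 for a BLD with a STD array and 0.27 for an ERD with a STD array, so the STD arrays were less alike than ERD and BLD arrays were. Over all regions the means within ERD, BLD and STD were 0.70, 0.74 and 0.44, and that of an ERD with a STD array was 0.49. The regions share arrays and slides.

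The 6 pairs of probes too small to be regions lay in HoxA (3), HoxD (2) and HoxB (1). The pair in HoxB on chromosome 11 from 96180067 to 96180545 had -0.87 ± 0.44 for the ERD arrays (SD, n = 4), -0.20 ± 0.64 for the BLD arrays (SD, n = 3) and -0.25 ± 0.22 for the STD arrays (SD, n = 3), and the 4 ERD arrays lay below the 3 STD arrays. A pair in HoxD on chromosome 2 from 74543697 to 74544114 had 0.59 ± 0.32 for the ERD arrays (SD, n = 4), 0.12 ± 0.25 for the BLD arrays (SD, n = 3) and 0.15 ± 0.40 for the STD arrays (SD, n = 3), with overlap. The other 4 pairs had diet means between -0.19 and 0.23.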

How the data were processed

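The 10 arrays of 94687 features, of which 5950 are controls, were all used. The deposited intensities are red (immunoprecipitated DNA, Cy5) and green (input, Cy3) processed signals, background-subtracted and dye-normalized by Agilent Feature Extraction, version 10.7.3.1 per the file headers and 9.0 per the submitters' processing notes. The deposited series table holds log10 ratios, which differed from those of the scanner files by at most 0.00498 and served, median-centred, as an alternative. No dyes were swapped. Control features and outlier spots were left out, log2 ratios were centred on each array's median with no loess or quantile step, and probes with starts at most 500 bp apart were averaged into regions of at least 3 probes. Regions and, separately, probes with a value on at least 2 arrays per diet were fitted over all 10 arrays with limma 3.58.1 in R 4.3.3, with Benjamini-Hochberg adjustment over the whole array and a threshold of 0.05. The code was tested on simulated data.

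The regions named are, per cluster, the 2 with the highest and the 2 with the lowest level, per comparison and for the trend the 3 with the lowest p in each direction, the 2 with the largest pooled SD, and per comparison the 2 probes with the lowest p in each direction. Other regions at an unadjusted p under 0.05 or on one side of the median on all arrays were named after their values were seen. The members and lists were chosen with earlier results of these data known. The number of arrays limits the precision. Alternatives were normexp background correction, loess, quantile normalization, scaling to one interquartile range, the series table, filters on dim and saturated spots, slide as a random block, array weights, other region definitions, the median of the probes, fits of 2 diets and leaving out each array.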

Additional observations from a re-analysis of the deposited data

Results flagged for a closer look

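In 2 of 33 groups of ERD values checked, 1 array stood apart from the other 3 by more than the critical value of Dixon for the gap over the range. Chance gives about 5% of groups that are not picked by their values. Most groups here were regions named for their level, low p or large spread on these arrays, so that rate does not apply to them. HoxC region 13 was named for its large SD within diets. Groups of 3 arrays were not checked. In HoxC region 2 ERD replicate 2 had a log2 ratio of 0.089, while the other ERD arrays lay between -0.32 and -0.25. In HoxC region 13 ERD replicate 2 had 0.57, while the other ERD arrays lay between -0.39 and -0.28. Both regions were at other positions of the same cluster, and ERD replicate 2 had the highest share of Hox spots well above background (88.6%). The part of spot brightness in these values was not tested.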

How the results depend on the processing

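No Hox region passed the adjusted threshold in limma in any alternative run. With normexp background correction the median difference over Hox regions was 0.038 between ERD and STD and 0.0083 for the trend, and 2 (BLD against STD) and 0 (ERD against BLD) regions and 26 and 1 probes were at an unadjusted p under 0.05. Of all 13835 regions, normexp gave 117 higher and 380 lower between BLD and STD, and 67 higher and 0 lower between ERD and BLD. It also turned the sign of HoxC region 2 (-0.057) and HoxC region 3 (-0.27) between BLD and STD and of HoxA region 2 (0.027) between ERD and BLD, and put the levels of HoxA and HoxD at -0.0085 and -0.016. Scaling to one spread gave a median of 0.032 between ERD and STD. It gave 11 Hox regions between BLD and STD, beside 1334 higher and 538 lower of all 13835 regions. Loess gave 8 Hox regions between ERD and BLD, beside 604 higher and 556 lower of all 13835 regions. Array weights gave 15 Hox regions (BLD against STD) and 11 (ERD against BLD). Joining starts up to 1000 bp apart gave 3 between ERD and BLD. Over probes well above background on all arrays, which left 37 Hox regions, the counts were 5 (ERD against STD), 1 (ERD against BLD) and 5 (trend), and the level of HoxB was -0.099. Of the 9041 regions so left on the array, 510 were higher and 1104 lower between ERD and STD. Between ERD and BLD 619 of them were higher and 382 lower, all at an unadjusted p under 0.05. With the median of the probes the Hox counts were 7 (ERD against STD), 11 (BLD against STD) and 5 (trend), and HoxC region 8 had -0.029 between ERD and BLD. The cause of these changes was not tested. Leaving out 1 array gave 8 to 14 regions for ERD against STD, 4 to 13 for BLD against STD, 4 to 8 for ERD against BLD and a median trend of -0.0032 to 0.0040. For probes it gave 47 to 79 at an unadjusted p under 0.05 for ERD against STD and 23 to 89 for BLD against STD, and 0 to 4 (BLD against STD) and 0 to 3 (ERD against BLD) past the adjusted threshold, the highest without BLD replicate 3. No paired analysis was possible because the replicate numbers follow the order of the samples and pair no arrays across diets. Dim spots limit the regions given above with few spots well above background. Counts over all regions are not given here for array weights, other joins, the median of the probes or arrays left out. Those Hox counts therefore cannot be set against the array.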
